A study of Homo sapiens with 4 samples.

Results

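S100 proteins are small calcium-binding proteins with a pair of EF-hand motifs that act mostly as dimers inside the cell, and some are also secreted. The mRNAs of 10 S100 genes (S100A2, S100A4, S100A6, S100A8, S100A9, S100A10, S100A11, S100A14, S100A16 and S100P) were followed here in RNA bound to the RNA-binding protein TIA1 and in total RNA. Probes other than controls were assigned to these genes when their listed transcript matched one of the 10 symbols, which gave 11 probes for the 10 genes out of 24154 gene symbols with a probe. After a filter on dim probes, 9 of the 10 genes remained among the 13039 genes tested, and S100A9 did not.

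All samples came from KYSE180, an established human esophageal squamous cell carcinoma line. In the TIA1 RIP group, RNA was recovered by immunoprecipitation from cytoplasmic lysate with a rabbit antibody against TIA1. The total RNA group is labelled as input, and whether that input was cytoplasmic lysate or whole cells is not given in the labels, so each ratio may also hold a difference between cell compartments that cannot be told apart here. Each group held 2 single-colour arrays of a whole human genome design, and neither group carried a drug treatment or a genetic change in the labels. Both groups thus rest on 1 cell line, and nothing in the labels says that replicates came from separate cultures, so the spread between them may be technical. An immunoprecipitate with control IgG was not analysed here, so the measurements compare bound RNA with input only.

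TIA1 is a shuttling protein of stress granules that binds U-rich stretches, often in 3′ untranslated regions (UTRs), and influences splicing, translation and mRNA decay. S100 genes are known in squamous epithelium for members that mark basal or stressed cells, such as S100A2 and the S100A8 and S100A9 pair. Other members work through partners, among them S100A10 with annexin A2, S100A11 with annexin A1, S100A4 with non-muscle myosin and S100A6 with the calcyclin-binding protein CACYBP. The comparison asks how much of each S100 mRNA was recovered with TIA1 relative to the input.

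Because TIA1 prefers U-rich RNA, the 30-base stretch of the 3′ UTR with the most T is given for 6 members, written as DNA on the transcript strand with runs of at least 3 T in capitals. S100A2 and S100A11 are shown because their groups of arrays did not overlap, S100A4 and S100A6 for their long T runs, and S100A8 and S100A9 because their stretches hold no such run. Letters and positions come from GENCODE transcripts on GRCh37. A T run is a description of the sequence, not a binding site.
S100A2 (chr1:153533808-153533837, minus strand): cTTTTTTTgtctgttgataataTTTTaatt
S100A11 (chr1:152005076-152005105, minus strand): ccTTTccttccagccTTTctgtcatcatct
S100A4 (chr1:153516163-153516192, minus strand): tccctgtcgccagtgggcacTTTTTTTTTT
S100A6 (chr1:153507076-153507105, minus strand): ttgtacaataaaTTTTTTTTggtcaaaTTT
S100A8 (chr1:153362514-153362543, minus strand): atgtacctgcagaataataaagtcatcaat
S100A9 (chr1:153333430-153333459, plus strand): gggcctgttatgtcaaactgtcttggctgt

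The longest T run in these stretches was 10 bases in S100A4, 8 in S100A6 and 7 in S100A2, against 3 in S100A11. The 3′ UTR of S100A11 does hold TTTTT, outside its printed stretch. In S100A8 no T had a T beside it. The motif TTTTT, searched on the transcript strand, lay somewhere in the 3′ UTR of 5 of the 10 members, namely S100A2, S100A4, S100A6, S100A10 and S100A11, whereas 78.1% of the genes tested held it. S100 3′ UTRs are short, at 71 to 648 bases against a median of 1176 bases, so the last 100 bases were also compared. There, TTTTT occurred in 3 of the 8 members with a 3′ UTR of that length (S100A4, S100A10 and S100A11) and in 35.7% of genes tested. ATTTA, the core of many AU-rich elements, was absent from the last 100 bases of all 8 members and present in 24.8% of genes. It occurred once, in the shorter 3′ UTR of S100A6.

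The genes sit close together. All members except S100P lie in the S100 cluster region of chromosome 1 on GRCh37, from S100A10 (chr1:151955391-151966335) to S100A14 (chr1:153586731-153589462), and S100P lies on chromosome 4 (chr4:6695605-6698897). Of the 10 genes, only S100A9 and S100P are on the plus strand. Their annotated transcripts were 408 to 1172 bases long, against a median of 3097 bases over genes tested, and had a GC content of 47.5% to 57.8%, against a median of 49.9%. The probe sequences themselves were not used here. For S100A11, the RefSeq annotation lists 10 pseudogenes named after it, and near-identical copies of a transcript cannot be told apart by hybridization.

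The 4 arrays differed in quality before any S100 gene was considered. The 75th percentile of the fluorescence intensity was 1514 and 1271 on TIA1 RIP replicates 1 and 2, 714 for the first total RNA replicate and 69.9 for the second, where 32.0% of spots were well above background against 45.7% to 48.3% on the other 3. Across genes, the TIA1 RIP pair correlated at 0.932 and the total RNA pair at 0.733. Total RNA replicate 1 lay as close to TIA1 RIP replicate 1 (r = 0.936) as the TIA1 RIP arrays lay to each other. Genes are not independent replicates, and these correlations describe the arrays only. Total RNA replicate 2 stood apart, so each S100 gene is given against each total RNA array. Squamous markers (KRT5, KRT14, KRT6A, KRT17, TP63, DSG3 and CDH1) were detected on all 4 arrays, 7 of 7. Of 5 myeloid markers with a probe, 3 to 4 were well above background depending on the array, among them PTPRC, CD14 and CSF3R, and MPO was on none. The log2 of their summed level was 0.21 and 1.00 in TIA1 RIP replicates 1 and 2, and -0.11 and 2.24 in total RNA replicates 1 and 2. COL1A1 was the only fibroblast marker detected, on 3 arrays, and VWF the only endothelial one. All arrays came from the KYSE180 line, so these signals are not a count of other cell types. Their source was not tested.

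Levels below are log2 processed signals minus the 75th percentile of the same array, and they are compared between arrays for 1 gene at a time, since signals of different probes are not on a common scale. GAPDH, the glycolytic enzyme mRNA that served as the study's reference for RNA not bound by TIA1, stood at 6.49 and 6.69 in TIA1 RIP replicates 1 and 2 and at 7.67 and 9.63 in total RNA replicates 1 and 2. ACTB, a second reference, stood at 5.95 and 6.11 in TIA1 RIP and at 6.87 and 8.84 in total RNA. TIA1 itself stood at -0.28 and -1.25 in TIA1 RIP and at -0.48 and -0.45 in total RNA.

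S100A11, which binds annexin A1, was the only tested member higher in both TIA1 RIP arrays than in both total RNA arrays. Its level was 5.55 and 5.53 in TIA1 RIP replicates 1 and 2, and 4.97 and 5.30 in total RNA replicates 1 and 2. The groups did not overlap, although their nearest values were close, at 5.53 and 5.30. The difference of the group means was 0.41 on the log2 scale (SE 0.77, adjusted p = 0.903 from limma over all genes). Groups separated in this direction for 19.4% of all genes tested. Both S100A11 probes kept the order, at 5.50 and 5.47 in TIA1 RIP against 4.86 and 5.13 in total RNA for one, and 5.61 and 5.58 against 5.07 and 5.47 for the other.

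S100A2, a member of basal squamous cells linked to the p53 family, was the only one of the 9 tested that was lower in both TIA1 RIP arrays on this scale, a direction that turned under quantile normalization (0.079) and under scaling to the E1A spike-in probes (2.97). It read 7.69 and 7.12 in TIA1 RIP replicates 1 and 2, and 8.42 and 10.08 in total RNA replicates 1 and 2. Its difference was -1.85 (SE 0.90, adjusted p = 0.776, limma), a level 3.60-fold lower on the means. Such a separation downwards was seen for 21.7% of genes tested. Against total RNA replicate 1 alone the TIA1 RIP mean of S100A2 was 2.03-fold lower, and against total RNA replicate 2 alone it was 6.38-fold lower. With total RNA replicate 1 left out, S100A2 passed the threshold (difference -2.67, adjusted p = 0.0296, limma), in a comparison where the single remaining total RNA array was assumed to vary as the TIA1 RIP arrays do. That comparison called 1849 genes higher and 2051 lower.

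On the percentile scale, S100A10, the partner of annexin A2 that stays active without calcium, had nearly the same level on all arrays. It was 6.53 and 6.15 in TIA1 RIP and 6.22 and 6.31 in total RNA, so the total RNA values lay between the TIA1 RIP values. The difference was 0.07 (SE 0.77, adjusted p = 0.985, limma). S100A16, a widely expressed member, stood at 5.72 and 4.76 in TIA1 RIP and at 5.09 and 5.42 in total RNA. Its total RNA values also lay between the TIA1 RIP values, with a difference of -0.02 (SE 0.81, adjusted p = 0.998, limma).

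S100A14, an epithelial member, had its highest level in TIA1 RIP replicate 1. The values were 2.51 and 1.44 in TIA1 RIP, and 1.69 and 0.76 in total RNA. TIA1 RIP was higher in 3 of the 4 pairs of arrays, and the groups overlapped. Its difference of 0.75 (SE 0.85, adjusted p = 0.836, limma) was the largest upward value among the members.

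S100A4 and S100A6, which bind myosin and CACYBP, had the same order of arrays within each group. S100A4 read -2.58 and -0.13 in TIA1 RIP replicates 1 and 2, and -1.92 and 1.87 in total RNA replicates 1 and 2. S100A6 read 5.41 and 6.28 in TIA1 RIP, and 4.90 and 7.35 in total RNA. In both genes the second replicate was the higher one in each group, and total RNA replicate 2 was the highest of the 4 arrays. The differences were -1.33 (SE 1.42) for S100A4 and -0.28 (SE 1.03) for S100A6, and the groups overlapped in both. Unscaled, the signal of S100A4 was 189 on total RNA replicate 1 and 255 on replicate 2, whereas the 75th percentile fell from 714 to 69.9 between these arrays. S100A6 went from 21278 to 11396.

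S100P, which binds and activates ezrin, was near the detection limit. It stood at -3.10 in TIA1 RIP replicate 1, where its probe was not well above background, at -1.57 in TIA1 RIP replicate 2, and at -2.91 and -0.36 in total RNA. The second replicate was again higher in each group, and the difference was -0.70 (SE 1.1). S100P passed the detection filter through total RNA alone, so its direction on the means is not independent of that filter.

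S100A8 and S100A9 form calprotectin, a heterodimer abundant in myeloid cells and in inflamed or differentiating squamous epithelium. S100A8 was at -0.07 and -1.92 in TIA1 RIP, at 1.18 in total RNA replicate 1, and at -0.86 in total RNA replicate 2, where its probe was not well above background. Here the second replicate was the lower one in each group, and total RNA replicate 1 was highest. The difference was -1.15 (SE 1.06, adjusted p = 0.799, limma). The S100A9 probe was well above background on total RNA replicate 1 alone, at -1.72. It read -4.16 and -5.27 in TIA1 RIP and -3.30 in total RNA replicate 2, where these values are not well above background. Set against that single array, S100A9 was 2.99-fold lower in TIA1 RIP by a bound, with no replicate check. Taking the only array with detection fixed this direction. The bound uses the lowest signal well above background on each TIA1 RIP array, or the gene's own value where that is higher. It is not a strict limit. On TIA1 RIP replicate 1 that lowest signal was -3.52, and S100P at -3.10 was not well above background.

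**Figure D1:**
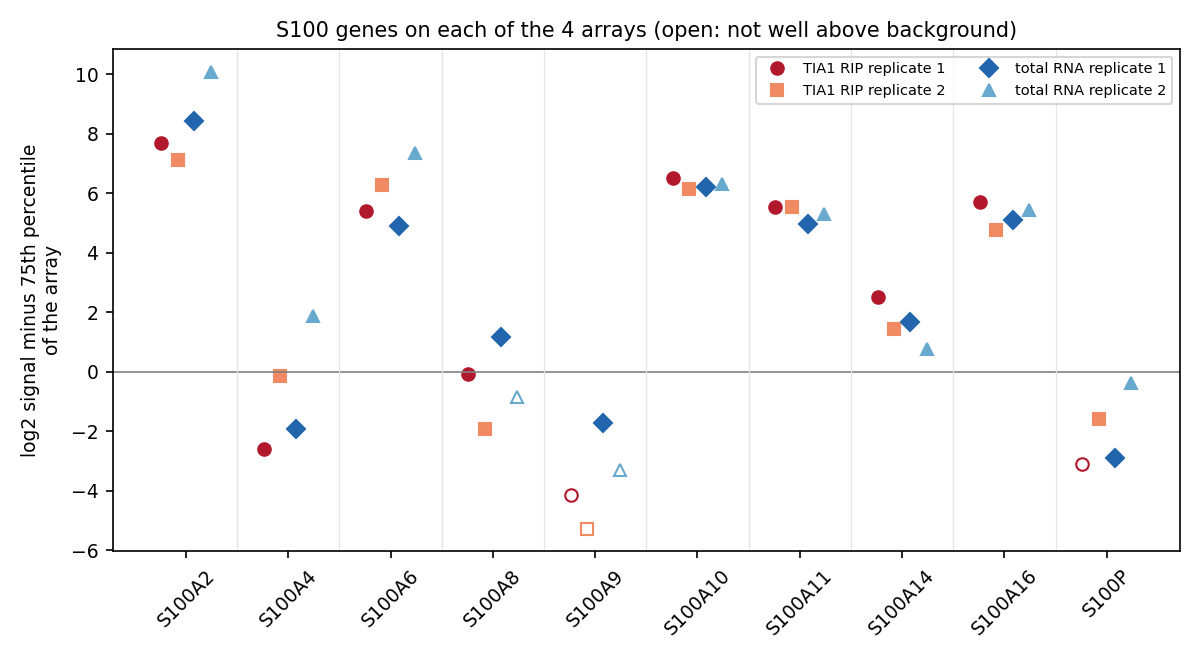
Level of the 10 S100 genes on each array, as log2 signal minus the 75th percentile of the array. Each point is 1 array (circle and square for TIA1 RIP replicates 1 and 2, diamond and triangle for total RNA replicates 1 and 2), and open points were not well above background. S100A2 is the tested gene with both TIA1 RIP points below both total RNA points on this scale (not under quantile or E1A spike-in scaling), S100A11 has both above, and S100A9 has 1 filled point.

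No member passed the threshold of 0.05 on adjusted p, and none had an unadjusted p under 0.05 either. The same fit in limma called 0 genes higher and 0 lower over all 13039 genes tested (0.0% each). At an unadjusted p under 0.05 it found 144 genes higher (1.1%) and 524 lower (4.02%). On the means, 3 members were higher in TIA1 RIP (S100A10, S100A11 and S100A14) and 6 were lower. Among the latter is S100P, which passed the detection filter through total RNA alone. Over all 13039 genes tested, 6339 were higher and 6700 lower. Scaling to the E1A spike-in probes instead moved the median of all genes to 4.78 and placed all 9 members above 0. The share of all genes above 0 was not counted. At an unadjusted p under 0.05 (limma), 9809 of the 13039 genes were higher on that scale and 0 lower. On the 75th percentile scale, the median difference of the members was -0.28, beside -0.04 for all genes tested. That order turned with only genes detected on all 4 arrays, at -0.02 for 7 members and -0.35 for all genes. The standard errors of 0.77 to 1.42 on the log2 scale mean that changes well over 2-fold could not be told from the spread between these arrays.

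Which total RNA array was used decided the side for part of the family. Against total RNA replicate 1, the TIA1 RIP mean of S100A6 differed by 0.95 on the log2 scale, and against replicate 2 by -1.5. S100A4 moved from 0.56 to -3.22, S100P from 0.57 to -1.97, and S100A16 from 0.15 to -0.18. These 4 of 9 members changed side, as did 44.2% of genes tested. S100P is counted although its TIA1 RIP replicate 1 value was not well above background. Against total RNA replicate 1, its TIA1 RIP replicates 1 and 2 stood at -0.19 and 1.34. Another 4 kept their side: S100A2 at -1.02 and -2.67, S100A10 at 0.12 and 0.03, S100A11 at 0.57 and 0.24, and S100A14 at 0.28 and 1.22. S100A8 was at -2.17 against replicate 1, and its side against replicate 2, where it was not well above background, was not settled. The median of the 9 members was 0.28 against total RNA replicate 1 (0.07 for all genes) and -0.18 against replicate 2 (-0.29 for all genes).

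Replicates of a group also moved apart within the family. Between the total RNA arrays 5 of 9 members differed by over 1 log2 unit (65.5% of genes tested), and between the TIA1 RIP arrays 4 of 9 did (19.0%), namely S100A4, S100A8, S100A14 and S100P. The second replicate was higher in both groups for S100A4, S100A6 and S100P, and lower in both for S100A8 and S100A14. These 5 of 9 members stand beside 64.8% of genes tested with such a shared sign.

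**Figure D2:**
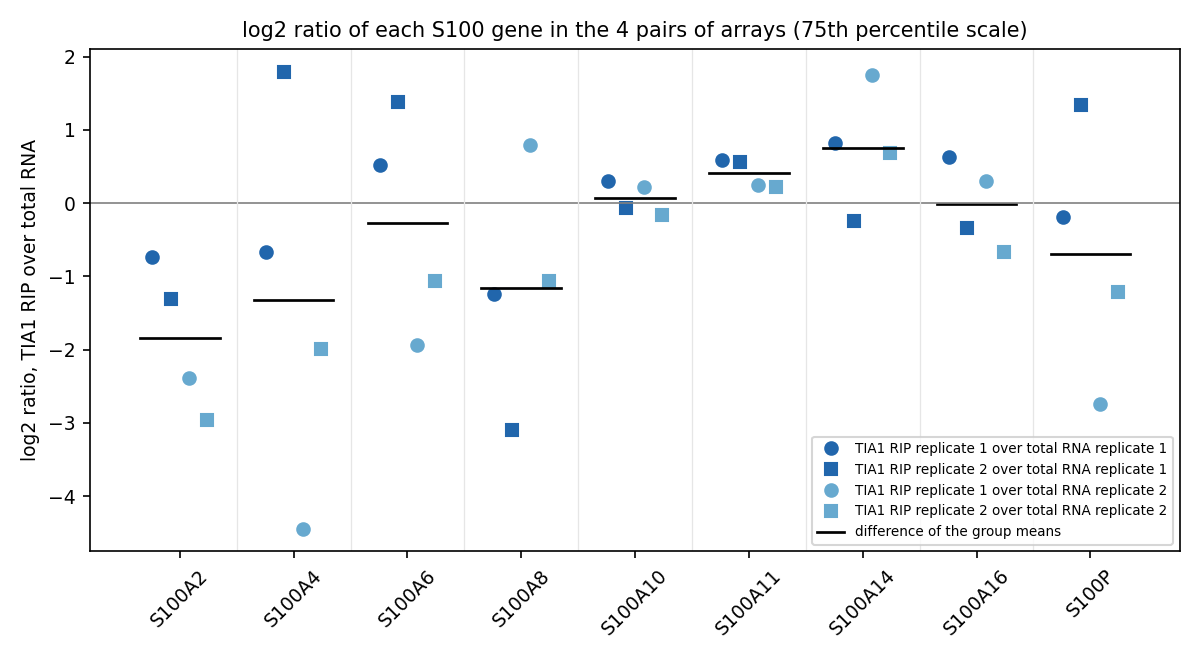
log2 ratio of TIA1 RIP over total RNA for the 9 members tested, in each of the 4 pairs of arrays (circle and square for TIA1 RIP replicates 1 and 2, dark and light for total RNA replicates 1 and 2). Black bars are the difference of the group means. All 4 points lie above 0 for S100A11 and below 0 for S100A2 on the 75th percentile scale (not under quantile or E1A spike-in scaling), while S100A4 spans from 1.79 to -4.44.

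Transcript composition moved with the ratio against total RNA replicate 2. Over all genes, grouped by deciles of GC content, the median ratio against that array went from 2.21 in the lowest decile to -2.04 in the highest, while against total RNA replicate 1 it stayed between 0.01 and 0.23. The 9 members fall in deciles 5 to 8. Compared with the median of genes in its own GC decile, S100A2 lay at -1.04 against replicate 1 and at -1.72 against replicate 2. S100A11 was above it by 0.52 and 0.65, and S100A14 by 0.26 and 2.17. S100A16, which was at 0.15 and -0.18 as measured, lay 0.14 and 1.16 above the median of its decile. S100A4 lay at 0.51 and -2.81. The part of GC content in these values was not tested. Transcript length moved too: 8 of the 9 members are in the shortest decile of transcripts, whose median ratio was -0.12 against replicate 1 and -1.35 against replicate 2. Among the brightest decile of genes, which holds 5 members (S100A2, S100A6, S100A10, S100A11 and S100A16), these medians were -0.32 and -1.21.

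**Figure D3:**
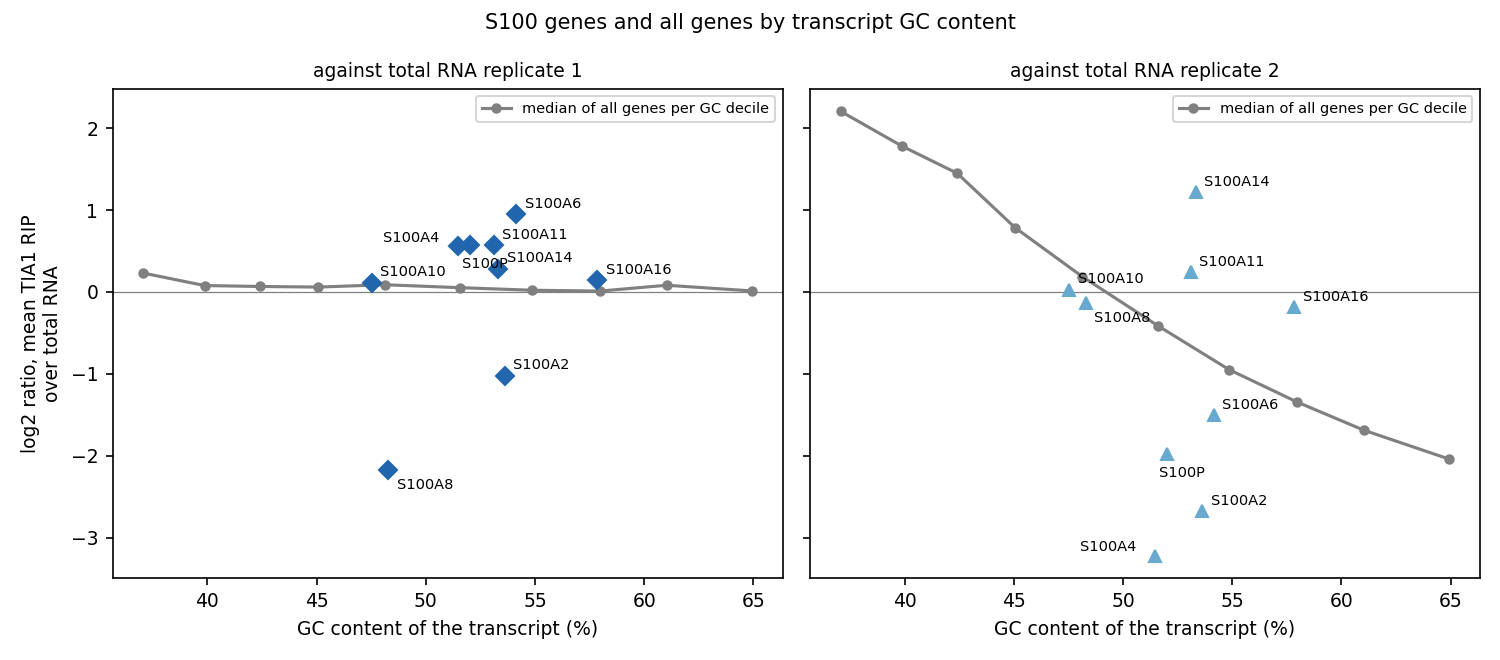
log2 ratio of the TIA1 RIP mean over total RNA replicate 1 (left) or replicate 2 (right) against the GC content of the transcript in percent. Grey points joined by a line are medians of all genes in each decile of GC content, and labelled points are the 9 members. The grey line is nearly flat on the left and falls from 2.21 to -2.04 on the right.

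Enrichment was also expressed relative to GAPDH, with 2.5-fold as the mark and without a test. On the group means 6 of 9 members were past it: S100A14 at 7.02-fold, S100A11 at 5.53-fold, S100A10 at 4.38-fold, S100A16 at 4.11-fold, S100A6 at 3.44-fold and S100P at 2.57-fold, where 1 of its TIA1 RIP values was not well above background. S100A8 at 1.87-fold, S100A4 at 1.66-fold and S100A2 at 1.16-fold were not, and no member was past 2.5-fold below GAPDH (1.62% of genes were). This count has to be read beside the background, since 72.4% of all genes tested were past the mark on the means. The difference of GAPDH itself was -1.08 against total RNA replicate 1 and -3.04 against replicate 2, and its difference is part of every value on this scale.

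The count also varied between pairs. With total RNA replicate 1, 5 members were past 2.5-fold for TIA1 RIP replicate 1 (46.0% of all genes) and 4 for replicate 2 (40.0%). With total RNA replicate 2, 5 were past it for TIA1 RIP replicate 1 (76.7%) and 7 for replicate 2 (77.7%), S100A8 being counted in both although its probe was not well above background on that total RNA array. S100A11 was the member past the mark in all 4 pairs, at 3.40, 10.5, 2.90 and 8.98-fold, which was true of 26.2% of genes. S100A6 was past it in 3 pairs, at 3.24, 5.13 and 3.66-fold, and stood at 2.31-fold for TIA1 RIP replicate 1 over total RNA replicate 2. S100A10, S100A14 and S100A16 also passed in 3 pairs and missed the mark for TIA1 RIP replicate 2 over total RNA replicate 1, at 1.87, 1.65 and 1.56-fold. S100A2 was past it in none, at 0.796 to 1.69-fold, which places it near GAPDH in every pair.

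**Figure D4:**
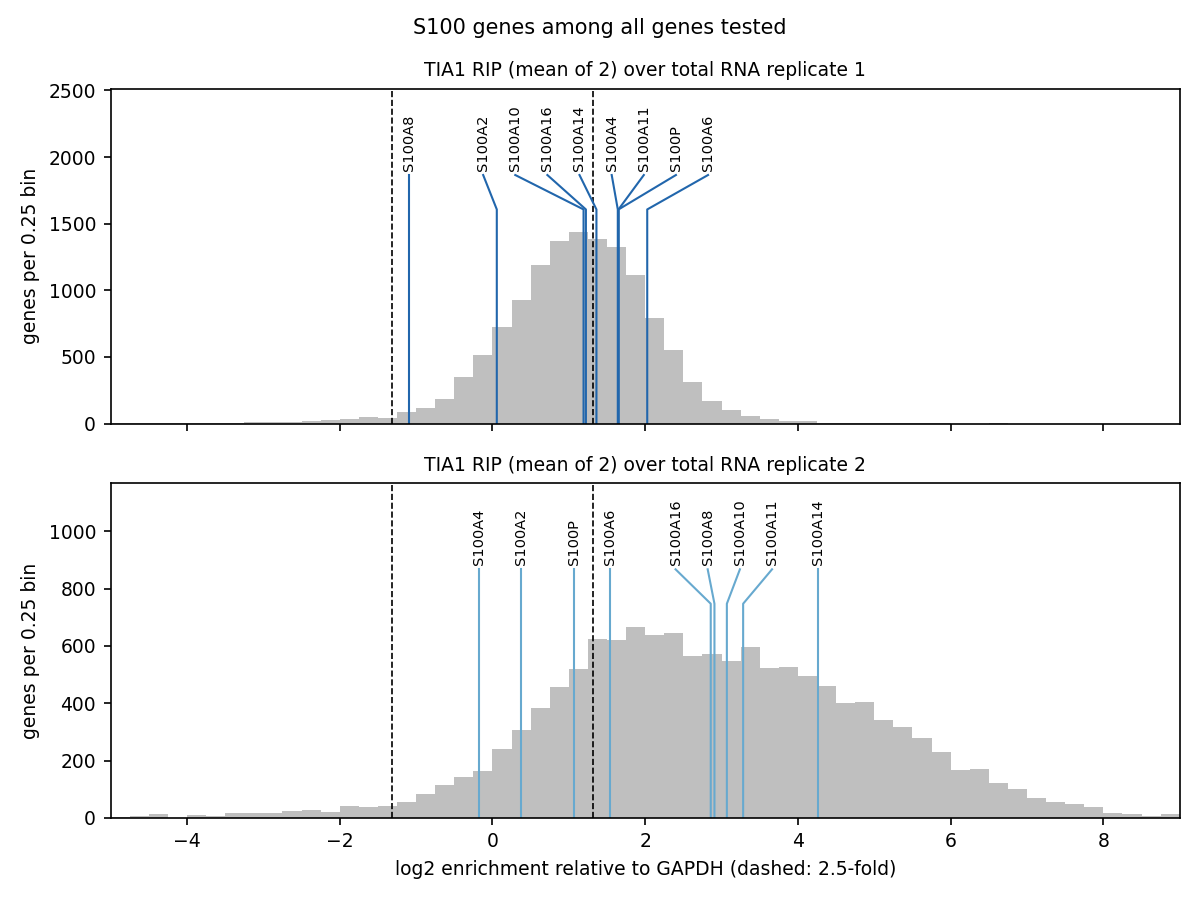
Number of genes by log2 enrichment relative to GAPDH, in bins of 0.25, for the mean of the TIA1 RIP arrays over total RNA replicate 1 (upper) and replicate 2 (lower). Coloured lines mark the 9 members, dashed lines mark 2.5-fold, and 17 genes lie beyond the axis in the lower plot. Past 2.5-fold lie 5 members in the upper plot (42.3% of genes) and 6 in the lower plot (77.5%), where the distribution is wider.

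Of the 10 other S100 genes with a probe, 2 passed the detection filter. S100A13, which takes part in the release of growth factors without a signal peptide, was lower in both TIA1 RIP arrays on the 75th percentile scale, at 4.82 and 4.46 against 5.86 and 7.26 in total RNA (difference -1.92, SE 0.86, adjusted p = 0.776, limma). S100A5, a neighbour of S100A6 in the cluster, was well above background in total RNA, at -1.68 and 2.20, and not in TIA1 RIP, at -4.52 and -3.89. By the bound described for S100A9, it was 11.8-fold lower in TIA1 RIP on the means. The bound was 3.08-fold against total RNA replicate 1 alone and 45.3-fold against replicate 2 alone. S100A5 thus depended strongly on the total RNA array used. Its adjusted p was 0.776 from limma, and since it passed the detection filter through total RNA alone, its direction was fixed by that filter. Its unscaled signal was 224 and 321 on total RNA replicates 1 and 2, so that, like S100A4, it was brighter on the dimmer array. Neither gene was past 2.5-fold above GAPDH in any pair.

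Among 14 S100 partners, 12 passed the detection filter. TLR4, a receptor for S100A8, and CD36 did not. None passed the adjusted threshold, and 1 was lower at an unadjusted p under 0.05 (4.02% of all genes). Groups did not overlap for 1 that was higher, S100PBP (19.4% of all genes), and for 4 that were lower, ANXA2, AHNAK, EZR and MYH9 (21.7%). The median difference of the 12 partners was -0.22, beside -0.04 for all genes. MYH9, the myosin heavy chain bound by S100A4, was the one lower at the unadjusted threshold, at 0.11 and -0.67 in TIA1 RIP against 2.00 and 2.42 in total RNA (difference -2.49, SE 0.80, adjusted p = 0.776, limma). S100PBP, the binding protein of S100P, was higher in both TIA1 RIP arrays, at 0.90 and 1.1 against 0.36 and -1.47. Its probe was not well above background on total RNA replicate 2, so that it passed the detection filter through TIA1 RIP alone. Its separation upwards is therefore not independent of that filter.

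Direct partners are set beside their members. ANXA2 stood at 3.06 and 2.87 in TIA1 RIP and at 3.87 and 3.66 in total RNA, with a difference of -0.79 (SE 0.77), while S100A10 had 0.07. ANXA1 stood at 6.29 and 5.86 in TIA1 RIP, and at 6.41 and 2.18 in total RNA replicates 1 and 2, so its difference of 1.78 (SE 1.36) was made up of -0.33 against replicate 1 and 3.89 against replicate 2, while S100A11 had 0.41. CACYBP had 0.42 (SE 0.83) and S100A6 had -0.28. EZR, added after its values were seen, stood at 4.08 and 3.82 in TIA1 RIP and at 4.85 and 5.30 in total RNA, with a difference of -1.13 (SE 0.78), while S100P had -0.70. Whether a partner differed from its member was not tested. On the GAPDH scale, 8 of the 12 partners were past 2.5-fold on the means (72.4% of all genes) and 2 in all 4 pairs (26.2%). These were BSG, a cell-surface glycoprotein known as a receptor for S100A9, at 4.59 to 6.35-fold, and S100PBP. Over total RNA replicate 1, S100PBP was at 3.30 and 3.28-fold. It is counted in the pairs with replicate 2 although it was not well above background there. No fold is given for those pairs, and its place in the count is not settled.

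The genes whose pattern over the 4 arrays was most like the mean of the 7 members detected on all arrays were IRX3, VPS26B and RAB15, out of 9230 genes compared. Likeness was the distance between levels after each gene's mean over the arrays was removed, and it was 0.06, 0.09 and 0.09 on the log2 scale. The mean profile of the members was -0.18 and -0.14 in TIA1 RIP, -0.39 in total RNA replicate 1 and 0.71 in total RNA replicate 2. Every single member lay farther from that mean, from 0.87 for S100A10 to 2.74 for S100A4, so the mean profile describes none of them closely.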

How the data were processed

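The authors scanned 4 single-colour arrays and deposited Agilent Feature Extraction 10.7 output (version per the submitters' processing notes), which gives a fluorescence intensity per spot after background subtraction, not normalized between arrays. The deposited files also hold other columns, the spot flags used here as filters. All 4 arrays were on 1 slide. The methods name GeneSpring, a normalization of mRNA to constitutive levels and enrichment relative to GAPDH, but no scaling between arrays and no test for this step.

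On the log2 scale, the array's own 75th percentile was taken off each intensity, after leaving out 299 to 382 of 58717 non-control spots flagged as outliers. No spot was saturated. Probes were kept if well above background (share of spots of at least 0.5) on both arrays of a group, and kept probes of a symbol were averaged. Symbols were found for 34510 of 50599 probes (68.2%) through RefSeq and GENCODE (GRCh37). limma 3.58.1 in R 4.3.3 (lmFit, eBayes, Benjamini-Hochberg) tested all genes at 0.05. The fit was also run on simulated data with the same spread in both groups, as a check of the code only. In the real arrays, the difference between replicates had an SD across genes of 2.00 for total RNA and 0.89 for TIA1 RIP. The simulation therefore says nothing about power here. The number of arrays limits the precision. Tables and plots used Python 3.11.15, pandas 2.3.3 and matplotlib 3.10.9.

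The genes named were the 10 members, the references GAPDH, ACTB and TIA1, the direct partners, detected S100 genes, listed genes past 2.5-fold of GAPDH in all 4 pairs, and 3 genes of nearest profile. Members and lists were chosen with earlier results of these data known. Alternatives covered background correction, scaling, detection filter, probe choice, reference gene, fold, the replicate block and each array left out. The E1A spike-in scaling was chosen after seeing the data. A column of mean signals was not used here, so the normexp correction (offset 50) took the median signal and background. No protein sequences were used.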

Additional observations from a re-analysis of the deposited data

How the results depend on the processing

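The precision is limited by 2 arrays per group and by the low signal of total RNA replicate 2. The count of called genes stayed at 0 in each direction under normexp correction, quantile normalization, both other detection filters and the choice of the brightest probe. With arrays left out in turn, genes called higher ranged from 0 to 1849 and lower from 0 to 2051. The labels share only replicate numbers between groups. With that number as a block, 57 genes were higher and 299 lower, the deviations of same-numbered arrays correlated at 0.453, and the members' adjusted p ranged from 0.319 to 0.997. A slide or scan block was not run, since all arrays shared 1 slide and 1 scan. The members' median was 0.71 under quantile normalization (0.26 for all genes), 0.18 under normexp (-0.13) and -0.02 with genes detected on all 4 arrays (-0.35). With arrays left out it went from -0.23 (-0.08 for all genes) to 0.28 (0.07). The count past 2.5-fold of GAPDH was 3 under quantile normalization (33.7% of genes). With total RNA replicate 2 left out it was 5 (42.3% of genes), and with total RNA replicate 1 left out it was 6 (77.5%). With TIA1 RIP replicate 1 left out it was 7 (70.1%), and with TIA1 RIP replicate 2 left out it was 6 (72.6%). Against the median of all genes, 0 were higher (12.7% of genes) and 1 was lower, a direction whose share over all genes was not counted. E1A spike-in scaling put the median of all genes at 4.78 and the members' median at 4.54, with 8408 of 13039 genes called higher. It reversed S100A2 (2.97), S100A4 (3.49), S100A6 (4.54), S100A8 (3.66), S100A16 (4.80) and S100P (4.12), and S100A6, S100A10, S100A11, S100A14 and S100A16 then passed the threshold. Under quantile normalization S100A2 was 0.079, S100A6 0.73 and S100A16 0.71, and under normexp S100A6 was 0.18 and S100A16 0.44. Differences with arrays left out ranged from -3.22 to 0.56 for S100A4, -1.50 to 0.95 for S100A6, -0.12 to 0.26 for S100A10, -0.50 to 0.46 for S100A16 and -1.97 to 0.57 for S100P. The cause was not tested. Of 97 results for single members under alternatives, 74 kept direction and side of the threshold. That count is no measure of stability. The detection filters, the probe choice and the replicate block cannot change the difference of a member with 1 probe. No member passed the threshold to begin with.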

Other observations

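S100A3 and S100A12, noticed after the values were seen and left out by the detection filter, were each detected on part of the arrays. S100A3, whose annotated span lies within that of S100A4 on the same strand, was at -1.21 in TIA1 RIP replicate 1 and 0.26 in total RNA replicate 1, and was not well above background at -3.19 and -1.30 on the second replicate of each group. One S100A12 probe was well above background on TIA1 RIP replicate 2 alone, at -2.53.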
